A study of Caenorhabditis elegans with 3 samples.

Results

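Chromatin immunoprecipitation with sequencing (ChIP-seq) had been used in Caenorhabditis elegans to find the DNA that EGL-27 occupies, and the regions described here are the autosomal peaks between genes that came up in more than 1 library. A peak of the pooled list, which was called on all libraries together, was counted when it overlapped a peak in at least 2 of the 3 single-library lists by 1 bp or more and its centre lay outside every protein-coding gene body, more than 500 bp from any protein-coding transcript start and more than 1000 bp from any tRNA, snRNA or snoRNA start. Of the 30000 pooled peaks, 959 met this rule, and they are called recurrent intergenic peaks below. They made up 15.6% of the 6138 autosomal intergenic peaks, where 14.5% of all 24440 autosomal pooled peaks overlapped 2 or more libraries. The members were thus selected on peak overlap between libraries and on annotation, and counts of libraries, signals and distances to genes are given as a description.

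All 3 libraries came from whole animals of strain OP177 in the last larval stage (L4), with males and females pooled per the labels. Every library carried the unc-119(ed3) allele on chromosome III and the wgIs177 insertion, a transgene from which EGL-27 is made with a GFP-FLAG tag at its C-terminal end. The labels call the libraries biological replicates 1, 2 and 4, name egl-27 under antibody and give sonication as the way chromatin was broken. They form 1 group with no second condition, and a whole animal mixes all tissues. The labels do not say how much DNA around egl-27 the insertion carries. Age beyond the stage is given as unknown.

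EGL-27 is related to the metastasis-associated (MTA) proteins, which act in the NuRD complex, an assembly that joins nucleosome remodelling with histone deacetylation. In C. elegans the gene is known for roles in cell polarity, neuron migration, Hox gene control and stress survival. Regulatory regions that lie apart from promoters are found in this genome between genes as well as in introns.

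The single-library lists held 9666, 13686 and 6636 peaks for replicates 1, 2 and 4, and their read depth is unknown. The signal is the authors' value for each peak on a scale that no source used here states, so it ranks peaks within a list and is not compared between lists. The pooled list holds peaks and background together by its deposited name, and 102 peaks form the authors' reproducible list. Intervals are exact binomial 95% intervals over peaks. They cover counting error only, and peaks that overlap share sequence.

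The sequences at the centres of the strongest recurrent peaks show the word that set these peaks apart most among the 7 motifs searched, GAGAGA on either strand. The following windows of 50 bases to each side of the centre, read from the RefSeq sequence of WBcel235 (the assembly of the files, ce11), are those of the 6 peaks of highest pooled signal on chromosomes II to V with the word within 50 bp of the centre. Capitals mark each GAGAGA or its reverse complement TCTCTC, and each window is named by the gene with the nearest protein-coding start.
F22B7.9, chrIII:8658541-8658641, plus strand: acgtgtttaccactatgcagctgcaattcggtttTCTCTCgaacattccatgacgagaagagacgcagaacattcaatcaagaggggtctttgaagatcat
unc-39, chrV:14366595-14366695, plus strand: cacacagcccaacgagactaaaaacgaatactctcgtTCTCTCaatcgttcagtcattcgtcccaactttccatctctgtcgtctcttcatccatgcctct
F43C1.7, chrIII:4237942-4238042, plus strand: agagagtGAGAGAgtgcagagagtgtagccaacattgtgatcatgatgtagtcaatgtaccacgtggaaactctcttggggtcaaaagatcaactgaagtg
T19C3.4, chrIII:623869-623969, plus strand: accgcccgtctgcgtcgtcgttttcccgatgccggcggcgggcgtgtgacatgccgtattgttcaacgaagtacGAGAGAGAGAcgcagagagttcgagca
cbp-1, chrIII:9765618-9765718, plus strand: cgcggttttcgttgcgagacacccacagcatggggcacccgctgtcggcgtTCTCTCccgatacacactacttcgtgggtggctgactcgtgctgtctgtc
egl-9, chrV:10466786-10466886, plus strand: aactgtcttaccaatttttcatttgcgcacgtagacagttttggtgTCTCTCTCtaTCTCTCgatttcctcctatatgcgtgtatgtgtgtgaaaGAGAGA
At T19C3.4 the copies overlapped in a run of 10 bases of alternating G and A, and at egl-9 capitals covered 20 bases. The 3 highest peaks on chromosomes II to V with no GAGAGA within 100 bp of the centre follow for contrast.
Y37A1A.2, chrIV:13919391-13919491, plus strand: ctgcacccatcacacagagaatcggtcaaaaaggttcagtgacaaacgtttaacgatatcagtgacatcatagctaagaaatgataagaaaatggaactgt
acs-2, chrV:15564202-15564302, plus strand: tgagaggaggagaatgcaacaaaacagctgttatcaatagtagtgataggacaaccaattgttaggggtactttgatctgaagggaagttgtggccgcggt
T24B8.3, chrII:9061924-9062024, plus strand: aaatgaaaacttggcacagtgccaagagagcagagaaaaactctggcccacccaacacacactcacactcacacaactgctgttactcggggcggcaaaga
Of these, the windows at Y37A1A.2 and acs-2 held a GATA site, the word in which A or T is followed by GATA and then by A or G, on either strand, and the window at T24B8.3 held none.

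The recurrent peaks were spread over all autosomes, with 159 on chromosome I, 179 on II, 172 on III, 207 on IV and 242 on V. They merged into 791 regions covering 381663 bp, of which 627 were 1 peak, 160 were 2 overlapping peaks and 4 were 3. A total of 731 protein-coding genes had the nearest start to at least 1 of them. An overlap with replicate 1 was found for 673 peaks, with replicate 2 for 791 and with replicate 4 for 578. Most peaks, 835, overlapped exactly 2 libraries, and 124 overlapped all 3 (12.9%, where 1.93% of all autosomal pooled peaks did). The rule fixes that excess, and of the 3532 autosomal peaks at any place that overlapped 2 or more libraries 13.4% overlapped all 3. Replicates 1 and 2 alone accounted for 381 peaks, replicates 2 and 4 alone for 286 and replicates 1 and 4 alone for 168.

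The pooled signal of the recurrent peaks ran from 3.74 to 28.8 with a median of 7.59, and that of the 5179 other autosomal intergenic peaks had a median of 5.04. Among the 1000 highest signals of the pooled list were 175 recurrent intergenic peaks, and among the 5000 highest were 499. Within each library the partner peaks lay somewhat above the middle of that library's list, with 60.03%, 62.45% and 66.1% of partners in the upper part by signal in replicates 1, 2 and 4. The order of the partner signals was little shared between libraries. As a description over members present in both lists, Spearman's rho was 0.12 between replicates 1 and 2 (n = 505), 0.20 between 1 and 4 (n = 292) and 0.25 between 2 and 4 (n = 410). The 673, 791 and 578 members with partners in replicates 1, 2 and 4 had 554, 655 and 471 distinct partner peaks. Some library peaks thus count more than once in these values and in the shares above. Position was also loose, since the centres of the pooled peak and its partner lay a median of 99 bp apart in replicate 1, 46 bp in replicate 2 and 102 bp in replicate 4.

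The reproducible list held 16 of the 959 recurrent peaks (1.67%, interval 0.957 to 2.69%), where it held 0.291% of all autosomal pooled peaks. Since that list and the rule both rest on overlap between libraries, nothing is read from this excess. Among peaks in 2 or more libraries elsewhere it held 2.48% in autosomal introns, 1.87% at autosomal promoters and 5.28% between genes on the X chromosome. These 16 were all of the autosomal intergenic peaks in that list, out of 71 autosomal ones. They were also the 16 recurrent peaks of highest pooled signal, from 18.8 to 28.8, and 10 of them had a partner in all 3 libraries.

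The highest lay 3006 bp upstream of fos-1, which encodes a bZIP factor needed for the anchor cell to invade the vulval epithelium (chromosome V, 6000380 to 6000809, pooled signal 28.8). Its partner peaks had signals of 9.28 in replicate 1, 10.9 in replicate 2 and 4.52 in replicate 4. The gap between cpg-4 and fos-1, 4256 bp long, held 5 recurrent peaks in 4 regions. The next peak by signal, at 26.9, lay 6412 bp upstream of Y37A1A.2 (chromosome IV, 13919226 to 13919655), with signals of 4.16, 7.13 and 10.9 in replicates 1, 2 and 4. Replicate 4 thus gave its highest value among the 16 at a peak whose partner ranked 13 in its own list and 1088 in that of replicate 1.

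Other peaks of the 16 are given with the role of the nearest gene where it is known, and no grouping by role was tested. The peak 841 bp upstream of cbp-1, the CBP/p300 histone acetyltransferase, had a pooled signal of 20.2 (III, 9765453 to 9765882) and signals of 7.95, 5.29 and 5.33 in replicates 1, 2 and 4. The peak 544 bp upstream of lin-59, which encodes a histone methyltransferase of the trithorax group, had a pooled signal of 20.7 (I, 3721486 to 3721915) and signals of 6.37, 15.4 and 3.05 in the same order. The peak 6429 bp upstream of unc-39, a Six-family homeodomain factor of mesoderm and cell migration, reached 23.9 (V, 14366430 to 14366859), with 12.55 in replicate 2 and 9.01 in replicate 4 but none in replicate 1. Its centre lay 362 bp from the start of cel-mir-241, a microRNA of the let-7 family that times larval cell fates, so the nearest protein-coding start is not its nearest gene.

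The peak 1681 bp upstream of egl-9, the prolyl hydroxylase that controls the hypoxia factor HIF-1, had a pooled signal of 19.8 (V, 10466621 to 10467050), with 3.14 in replicate 1, 12.4 in replicate 2 and none in replicate 4. The peak 3142 bp upstream of acs-2, an acyl-CoA synthetase of fat oxidation, had 20.8 (V, 15564037 to 15564466), with 7.18 and 11.1 in replicates 1 and 2 but none in replicate 4. Both were thus in only 2 of the libraries despite ranking within the 16. The peak near mtm-3, a myotubularin lipid phosphatase, lay 1201 bp upstream (III, 3801453 to 3801882, pooled signal 21.9) and had partners of 3.21, 11.3 and 5.04 in replicates 1, 2 and 4. The peak near letm-1, a mitochondrial inner membrane protein, lay 2485 bp upstream (V, 13658557 to 13658986, 18.8) and had partners of 5.98, 6.65 and 6.03 in the same order. The peak 987 bp upstream of ppm-2, a protein phosphatase of the PP2C type, had 22.7 (III, 4649292 to 4649721), with partners in replicates 2 and 4 alone.

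The other reproducible peaks had as nearest starts F22B7.9 (III, 8658376 to 8658805, pooled signal 24.9), tag-340 (III, 4899702 to 4900131, 24.2), F43C1.7 (III, 4237777 to 4238206, 22.1), T19C3.4 (III, 623704 to 624133, 20.8), F26A3.4 (I, 7658916 to 7659345, 20.4) and T24B8.3 (II, 9061759 to 9062188, 18.8). Distances ran from 591 bp at tag-340 to 4666 bp at F22B7.9, and only the F43C1.7 peak lay downstream of its start. GAGAGA was within 100 bp of the centre in 13 of the 16 (81.3%, interval 54.3 to 95.9%), all but those at Y37A1A.2, acs-2 and T24B8.3. The mean GC content of the 16 windows was 46.7% ± 5.67 (SD over peaks).

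**Figure D1:**
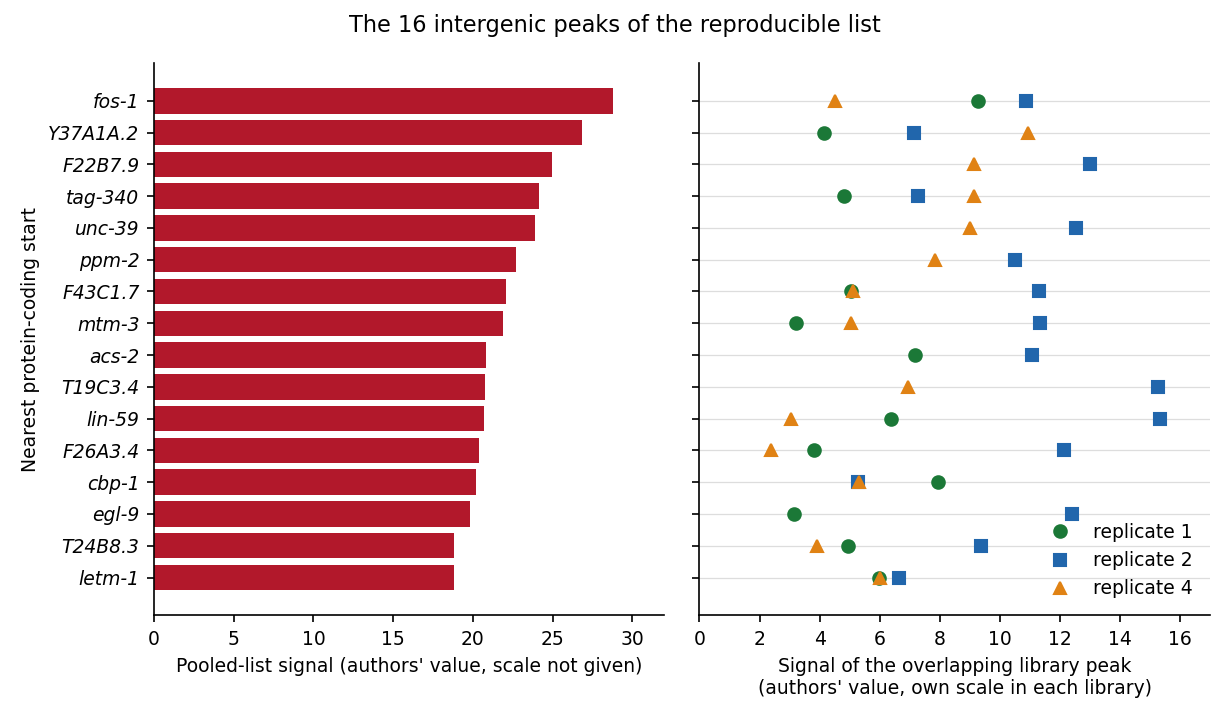
Left, pooled-list signal of the 16 recurrent intergenic peaks in the reproducible list, named by the nearest protein-coding start. Right, signal of the overlapping peak in each library (circles replicate 1, squares replicate 2, triangles replicate 4, no point where there was no partner). Pooled signals ran from 18.8 to 28.8, and the order of the library signals differed from the pooled order.

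Relative to genes, the recurrent peaks sat upstream more often than not. The nearest protein-coding start lay downstream of 752 peaks (78.4%), so that these were upstream of the gene, against 73.0% of the other intergenic peaks. The median distance to that start was 1961 bp, against 2120 bp, and the median length of the gap between flanking protein-coding genes was 5766 bp, against 6107 bp. Gaps between divergently transcribed genes held 37.2% of recurrent peaks (33.02% of the others) and gaps between convergent genes 8.76% (11.5% of the others). Distance was part of the rule, and the members nearest to its limit lay 501, 502 and 503 bp from the starts of Y105C5A.24, cfz-2 and C13C4.6, with signals of 8.77, 7.81 and 7.93. The nearest peaks left out lay 497 bp from the starts of rps-28, F49D11.11 and Y60A3A.21, with signals of 10.6, 8.26 and 7.92. At the limit for small RNA genes the nearest member lay 1018 bp away, next to F37A8.5, and the nearest peak left out 934 bp away, next to scpl-1.

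Intergenic here means outside protein-coding genes, and 82 of the 959 centres lay in the body of another annotated gene. Non-coding RNA genes held 39 of them (4.07%, against 1.66% of the other intergenic peaks) and pseudogenes 32 (3.34%, against 8.17%). Long intergenic non-coding RNA genes held 10. Among the 16 reproducible peaks, the centres at tag-340, unc-39, ppm-2 and letm-1 lay in genes annotated as non-coding RNA and not as long intergenic non-coding RNA. On chromosome IV, which carries the dense clusters of piRNA genes, 64 of 207 recurrent peaks (30.9%) had a piRNA start within 1000 bp, against 519 of 1193 other peaks (43.5%).

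MicroRNA genes lay within 1000 bp of 11 recurrent peaks (1.15%, against 0.637% of the others). Of these 11, 3 flanked the neighbouring let-7 family genes on chromosome V, namely the peak at cel-mir-241 given above and peaks 422 and 736 bp from cel-mir-48 (14364716 to 14365145 and 14365030 to 14365459), with pooled signals of 6.28 and 7.96. The 2 peaks near cel-mir-48 overlapped each other and shared their partners in replicates 2 and 4, so they are 1 region. A pair of overlapping peaks lay 234 and 445 bp from cel-mir-52, a member of the mir-51 family, and had partners in all 3 libraries (IV, 14033559 to 14033988 and 14033348 to 14033777, pooled signals 8.24 and 13.2). Another pair lay 224 and 423 bp from cel-mir-238 on chromosome III, also with partners in all 3. The remaining peaks were near cel-mir-231, cel-mir-53, cel-mir-8209 and cel-mir-792, and the one at cel-mir-231 had lin-39 as its nearest protein-coding start.

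The GAGAGA word was the sequence feature with the widest gap between recurrent and other intergenic peaks among the 7 motifs on the list. That list was chosen with earlier results of these data known. It occurred within 100 bp of the centre in 251 of 959 recurrent peaks (26.2%, interval 23.4 to 29.1%) and in 765 of 5179 others (14.8%, interval 13.8 to 15.8%), a difference of 11.4 percentage points. It was in 37.9% of the 124 peaks with partners in all 3 libraries and in 24.4% of the 835 with partners in exactly 2. Peaks with a partner in 1 library held it in 16.3% and peaks with none in 12.63%, so the share was higher at each further library. Of all 30000 pooled windows 14.2% held the word. Recurrent peaks elsewhere had shares of 24.1% in autosomal introns (685 peaks), 21.4% at autosomal promoters (1285 peaks) and 22.1% between genes on the X chromosome (303 peaks), so a high share was shared by recurrent peaks at other places.

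The same comparison was made within each library's own list, where peaks under the same annotation rule were divided by whether another library's peak overlapped them. In replicate 1 the word was in 25.2% of 610 shared peaks and 15.04% of 1356 single ones. In replicate 2 it was in 26.03% of 703 shared and 14.6% of 2201 single peaks. In replicate 4 it was in 24.7% of 519 shared and 17.4% of 887 single peaks. Shared peaks were higher in 3 of 3 libraries, by 9.63 ± 2.11 percentage points (SD, n = 3 libraries; exact two-sided sign-flip permutation test over the libraries, p = 0.25, the smallest that 3 libraries allow). Since each shared peak is counted in more than 1 library, these 3 differences are not fully independent.

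Recurrent peaks also had higher pooled signals, and the word was commoner at high signal in both sets. When the recurrent peaks were divided into 4 sets of like size by signal, in the highest set (9.96 to 28.8) GAGAGA was in 40.4% of 240 peaks, against 26.2% of the other intergenic peaks in the same signal range. In the set below, the shares were 23.4% and 22.4%, which differ by less than their intervals. In the next set they were 22.1% and 16.9%, and in the lowest 18.8% and 12.8%. The mean of these 4 differences was 6.61 percentage points, so the gap between the sets was smaller within these ranges than over all peaks. Signal was not matched at the top of the highest range, where other peaks reached 16.8 and the 16 reproducible peaks began at 18.8. The comparison within ranges was added after the data were seen.

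**Figure D2:**
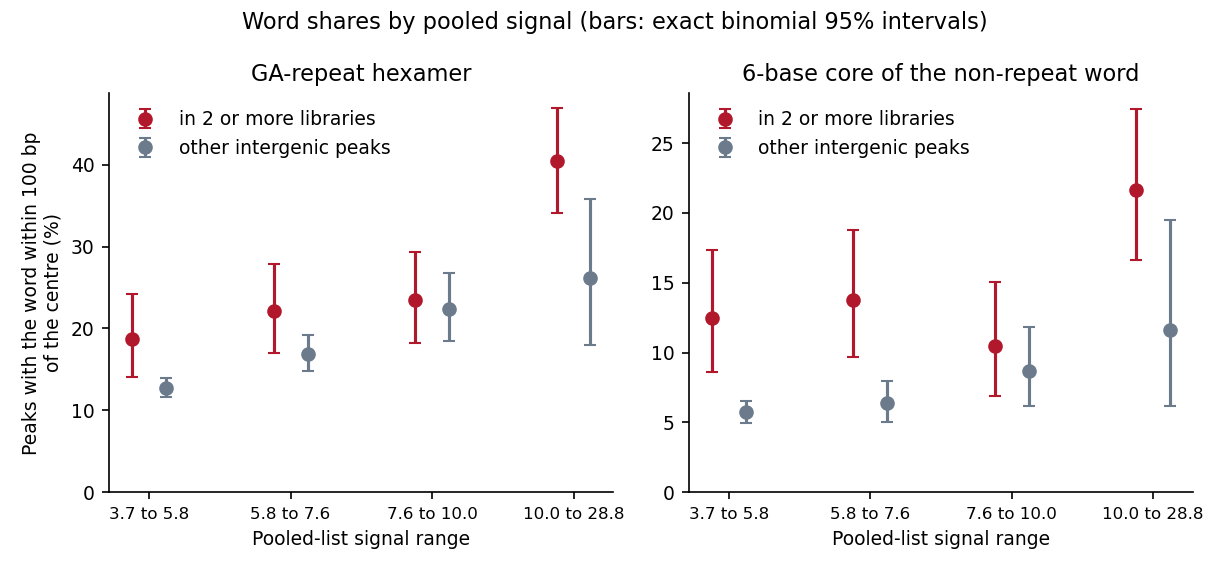
Share of autosomal intergenic peaks with the GA-repeat hexamer (left) and with the 6-base core of the non-repeat word described in the text (right) within 100 bp of the centre, by pooled signal, for recurrent peaks and for other peaks in the same signal range. Points are shares and bars exact binomial 95% intervals. The GA-repeat share of recurrent peaks went from 18.8% in the lowest range to 40.4% in the highest.

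The word was concentrated at the centre of the recurrent peaks. In 50-bp steps it began in 8.86 to 9.38% of recurrent peaks in the central steps and in 3.02 to 4.90% in the steps more than 500 bp away, with a median of 3.86%. The other intergenic peaks had 4.36 to 4.63% at the centre and a median of 3.24% far from it. Longer repeats followed the same order. Uninterrupted runs of alternating G and A of 8 bases or more were in 10.01% of recurrent windows and 3.69% of the others, runs of 12 or more in 3.23% and 0.985%, and the longest were 54 and 31 bases. On each autosome the GAGAGA share of recurrent peaks was above that of the others, from 34.6% against 19.4% on chromosome I to 20.3% against 14.4% on IV.

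Words that had not been listed were also counted, after the data had been seen, over all 2080 hexamers with their reverse complements. The median difference between recurrent and other intergenic peaks was 0.0894 percentage points, with 28 hexamers above 5 points and 33 below -5 points. AGAGAA led at 12.1 points, followed by GAGAGA and by 4 further words that overlap it in sequence. The seventh, CGCAGA, is not a GA repeat and was in 14.6% of recurrent peaks and 6.24% of the others. With GACGCA, which is also among the 15 highest, it joins into the 8-base word GACGCAGA. The 15 hexamers that were highest and the 15 that were lowest kept their sign in all 3 libraries' own lists. These words were picked from largely the same peaks, so this is a description and not a replication. The words with the most negative differences were rich in A and T. The lowest, AAAATT, was in 55.2% of recurrent peaks and 65.9% of the others, a difference of -10.7 points.

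The word GACGCAGA was in 71 recurrent peaks (7.40%, interval 5.83 to 9.25%), in 121 other intergenic peaks (2.34%, interval 1.94 to 2.79%) and in 1.91% of all pooled windows. To show its surroundings, the following 48-base stretches hold it in the 6 recurrent peaks of highest signal on chromosomes II to V that have it. Capitals mark the word, which lies in the strand given. The peaks were chosen after their values were seen.
F22B7.9, chrIII:8658582-8658629, plus strand: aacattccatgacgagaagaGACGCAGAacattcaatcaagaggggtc
T19C3.4, chrIII:623931-623978, plus strand: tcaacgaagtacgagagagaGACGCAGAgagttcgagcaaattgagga
egl-9, chrV:10466723-10466770, minus strand: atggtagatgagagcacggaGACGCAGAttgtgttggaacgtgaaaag
T23E1.1, chrIV:3160970-3161017, minus strand: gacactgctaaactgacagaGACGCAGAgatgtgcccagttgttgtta
cpt-1, chrII:12798993-12799040, plus strand: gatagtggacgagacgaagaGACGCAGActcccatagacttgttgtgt
aakg-1, chrIII:12583640-12583687, minus strand: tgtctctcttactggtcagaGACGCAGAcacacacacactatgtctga
At T19C3.4 the GA run shown above led straight into the word, which occurred in 2 copies within 100 bp of that centre.

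GACGCAGA was commoner in peaks that also held GAGAGA. Among recurrent peaks with GAGAGA 17.5% also held GACGCAGA, against 3.81% of those without, and among the other intergenic peaks the shares were 10.1% and 0.997%. Within recurrent peaks that lack GAGAGA the share was thus still above that of other peaks that lack it. Its core CGCAGA was in 30.7% of recurrent peaks with GAGAGA and 8.90% without. Either GAGAGA or CGCAGA was in 314 recurrent peaks (32.7%) and in 18.7% of the others. In own lists CGCAGA was in 11.0%, 12.4% and 12.3% of shared peaks and 6.56%, 6.09% and 8.005% of single peaks of replicates 1, 2 and 4, a difference of 5.01 ± 1.11 points (SD, n = 3; exact two-sided sign-flip permutation test, p = 0.25). As the word was picked from these data, this is a description. Between genes on the X chromosome GACGCAGA was in 5 of 303 recurrent peaks (1.65%, interval 0.538 to 3.81%). Autosomal intron recurrent peaks held it in 5.11% and promoter ones in 4.82%. The word was picked from autosomal intergenic peaks, and its share in other X chromosome peaks was not counted. No difference between chromosomes is thus read from these shares.

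**Figure D3:**
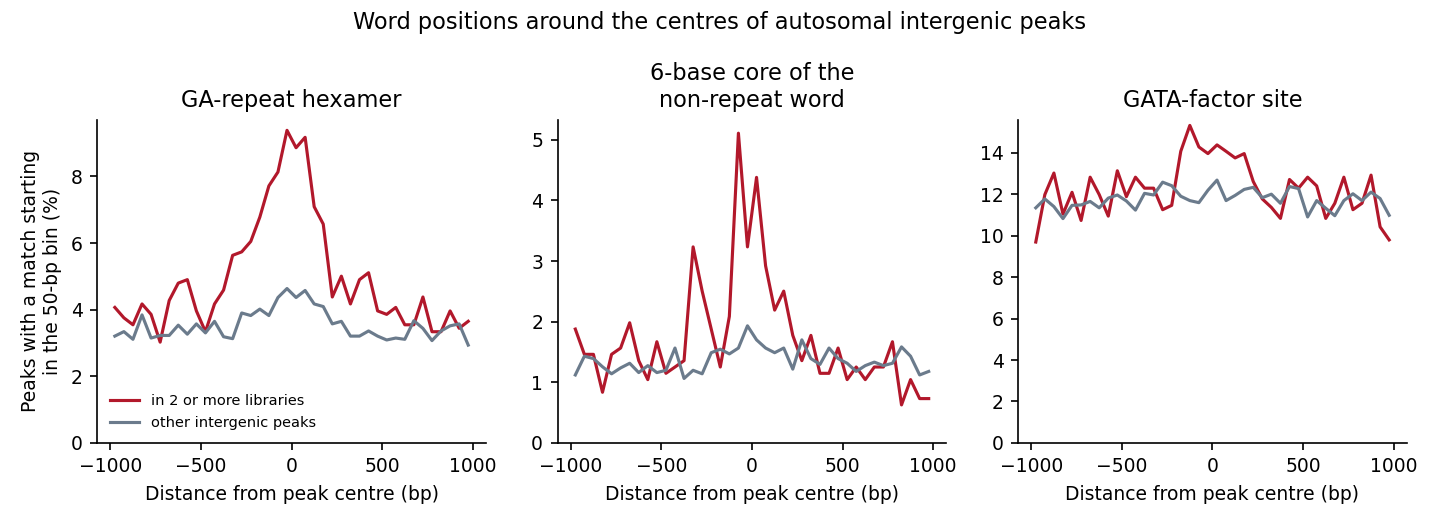
Share of autosomal intergenic peaks with a match that starts in each 50-bp step around the peak centre, for the GA-repeat hexamer, the 6-base core of the non-repeat word and the GATA-factor site, in recurrent and other peaks. At the centre the GA-repeat share of recurrent peaks was 8.86 to 9.38% against a median of 3.86% more than 500 bp away. The core was in 3.23 to 4.38% of recurrent peaks in the central steps and highest, at 5.11%, at 50 to 100 bp on 1 side. It was also in 3.23% (31 peaks) in the single step at 300 to 350 bp on that side, and this step was not tested.

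Sites for other factors differed less. A GATA site was in 41.9% of recurrent peaks (interval 38.8 to 45.1%) and 37.98% of the others, and in own lists shared peaks were higher in 3 of 3 libraries, by 3.47 ± 1.35 points (SD, n = 3; exact two-sided sign-flip permutation test, p = 0.25). Without replicate 4 as a source of partners the pooled difference was 0.0199 points, and without replicate 1 it was 7.25 points, so the value rests on which libraries define recurrence. Only 4 of the 16 reproducible peaks held a GATA site. The E-box CACGTG was in 6.36% of recurrent peaks and 3.30% of the others, by 2.91 ± 0.526 points in own lists (SD, n = 3; exact permutation p = 0.25). The CACGTG share of recurrent peaks elsewhere was 6.86% in autosomal introns, 4.75% at autosomal promoters and 3.30% between genes on the X chromosome. TTTCAAA was rarer in recurrent peaks, in 24.6% against 30.7% of the others. It was lower in shared peaks of 3 of 3 libraries, by 4.14 to 5.47 points. TGANTCA was in 7.93% and 5.89%, GGGCGG in 5.11% and 4.31% and TTTTTTTT in 24.6% and 26.05%, and the differences of the latter pair did not have the same sign in all 3 own lists. A match is a description of the letters in a window and not of a bound site.

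Recurrent and other intergenic peaks also differed in base composition and in place along the chromosome. GC content averaged 36.7% in recurrent windows (SD over peaks 7.79) and 34.5% in the others (SD 6.78). In own lists shared peaks were higher by 1.99, 2.25 and 2.55 points in replicates 1, 2 and 4. Recurrent peaks elsewhere averaged 36.8% in autosomal introns, 37.7% at autosomal promoters and 37.9% between genes on the X chromosome. Windows were nearly all unique in the genome, with 99.0% of their 36-base words at 1 place in recurrent peaks and 98.3% in the others, and 32.03% against 36.5% of bases were soft-masked as repeats in the reference. With each autosome divided into 3 equal parts, the central part held 411 recurrent peaks (42.9%, interval 39.7 to 46.1%) and 34.7% of the other intergenic peaks. In own lists the central share was higher in shared peaks of 3 of 3 libraries, by 6.06, 9.86 and 3.48 points. Chromosome IV stood apart in that 30.4% of its recurrent and 29.4% of its other peaks lay in the central part, while on I, II, III and V recurrent peaks had 44.03 to 49.7%. GAGAGA did not follow the central part, with 24.1% of central and 27.7% of outer recurrent peaks holding it. The part of base composition in the word shares was not tested.

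**Figure D4:**
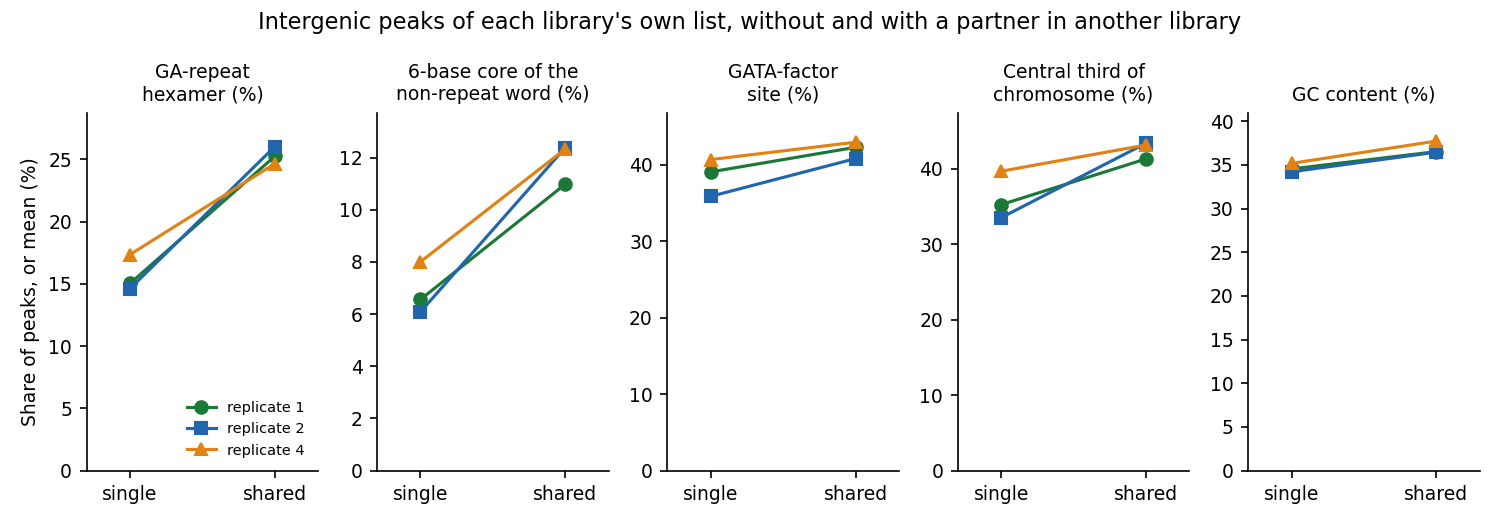
Each library's own intergenic peaks, divided into those without (single) and with (shared) a partner in another library, for the GA-repeat hexamer, the core of the non-repeat word, the GATA-factor site, the central part of the chromosome and GC content. Each line is 1 library (circles replicate 1, squares replicate 2, triangles replicate 4). All 5 measures were higher in shared peaks of 3 of 3 libraries, and the GA-repeat share went from 14.6 to 17.4% in single to 24.7 to 26.03% in shared peaks.

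Whether a peak found in some libraries was more often found in a further one was asked for each library in turn, leaving that library out of the choice. For autosomal intergenic pooled peaks with partners in both other libraries, 30.2% of 410 had a partner in replicate 1, 42.5% of 292 in replicate 2 and 24.6% of 505 in replicate 4. For peaks with a partner in exactly 1 of the others the shares were 19.7%, 34.8% and 15.4%. The difference was 9.13 ± 1.45 points (SD, n = 3 libraries), given as a description because overlap between libraries also chose the members. Peaks with a partner in neither of the others had shares of 25.7%, 44.4% and 18.4%, above those with exactly 1 in each case and, in replicate 2, above those with both. A peak enters the pooled list through the libraries themselves, so these shares do not show the rate at which an independent library would find it.

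The gap upstream of egl-27 itself held the most recurrent peaks of any gap. The 18574-bp gap on chromosome II between snt-1, which encodes synaptotagmin, and egl-27 held 11 recurrent peaks in 8 regions, out of 15 intergenic pooled peaks there (73.3%). Of the 140 other autosomal gaps of 15000 to 25000 bp, 86 held no recurrent peak, and the highest number of regions was 5. The 11 peaks lay 645 to 14237 bp upstream of the egl-27 start with pooled signals of 4.53 to 15.9, and 5 had partners in all 3 libraries. The highest lay at 6822429 to 6822858, with signals of 2.81, 7.82 and 4.89 in replicates 1, 2 and 4. The next by signal lay 2068 bp upstream of the start, at 6832725 to 6833154 (15.6), with 3.34 in replicate 1, 6.14 in replicate 4 and none in replicate 2. None of the 11 was in the reproducible list.

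Peaks in 2 or more libraries went on through the gene, where 13 of 15 pooled peaks inside the gene body were recurrent. The highest of the 15 had a signal of 35.98. Between 10 and 20 kb downstream of the start 8 of 14 were recurrent. The gene body ends 12901 bp from the start, so some of these 8 are also among the 13. The farthest of the 8 lay 14659 bp from the start. Farther out, 1 of 3 was recurrent between 20 and 30 kb downstream and 1 of 3 between 30 and 40 kb downstream, and between 20 and 40 kb upstream none of the 6 pooled peaks was. The wgIs177 insertion carries egl-27 sequence, and reads from inserted copies and from the native locus cannot be told apart in these lists. No recurrent intergenic peak lay within 20000 bp of the start of unc-119, the other gene named in the strain. Promoter and gene-body peaks were not counted there, and nothing is read from this absence.

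**Figure D5:**
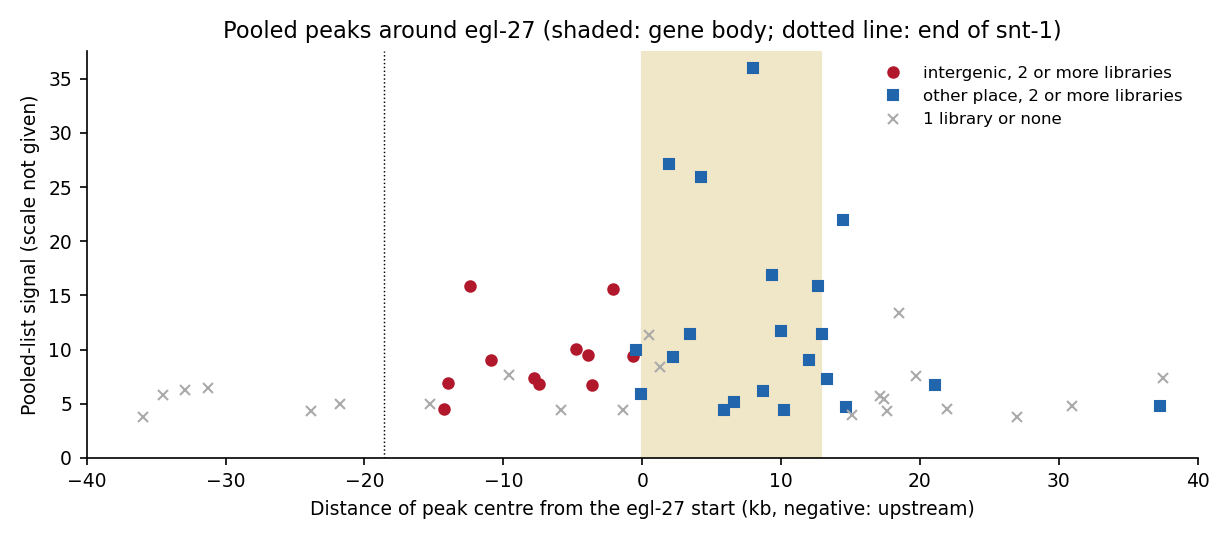
Pooled-list signal of peaks within 40 kb of the egl-27 start by distance of the peak centre from that start. Circles are recurrent intergenic peaks and crosses peaks in 1 library or none, with the gene body shaded. Squares are recurrent peaks that the annotation rule left out, in a protein-coding gene body or near a protein-coding or small RNA start. The 11 recurrent intergenic peaks lie between 645 and 14237 bp upstream.

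Gene lists were read through the nearest protein-coding start, with no test. Of 16 genes of NuRD and MTA-related complexes, 4 had a recurrent peak, with 12 peaks in all (1.25% of members, against 0.212% of the other intergenic peaks). Of these 12, 8 lay in the gap upstream of egl-27, and without that gap 4 were left (0.422%). One lay 2650 bp upstream of dcp-66, the p66 subunit (I, 7544594 to 7545023, signal 11.8), and another 3781 bp upstream of let-418, a Mi-2 remodeller (V, 5822837 to 5823266, signal 8.24). Both of these had partners in replicates 2 and 4 alone. The GATA factor list, which also holds egl-27, had 9 peaks (0.939%, against 0.212%), of which 8 lay in the same gap and 1 lay 4171 bp upstream of egl-18, a factor of the seam cells (signal 10.5).

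Transcription factors of the bHLH, bZIP, Sox, T-box and Forkhead families had 17 recurrent peaks at 10 of 90 genes (1.77%, against 0.946%). This list also holds fos-1, and the gap between cpg-4 and fos-1 held 5 recurrent peaks in 4 regions. After fos-1 the strongest lay 1914 bp upstream of mml-1, a Mondo-type factor (signal 14.3, with 7.74 and 8.02 in replicates 2 and 4), and 1961 bp upstream of hif-1, the hypoxia factor (13.6, with 4.63 and 5.57 in replicates 1 and 2). The stress and ageing list had 8 peaks at 6 of 50 genes (0.834%, against 0.328%), and besides egl-9 and hif-1 it included a peak 2228 bp upstream of daf-16, the FOXO factor (10.4, with 4.88 and 3.34 in replicates 2 and 4). The peaks at egl-9 and hif-1 both had GAGAGA near the centre and partners in replicates 1 and 2 alone, and a link between them was not tested. Hox and homeobox genes had 12 peaks at 9 of 82 genes (1.25%, against 1.14%), among them lin-39, the mid-body Hox gene (7721 bp upstream, 13.1), and ceh-6, a POU homeodomain gene (5042 bp downstream, 12.96).

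Among signalling lists, the Wnt list had 4 peaks (0.417%, against 0.309%), at wrm-1, a beta-catenin (720 bp upstream, 15.5, with 4.52, 6.61 and 3.54 in replicates 1, 2 and 4), at dsh-1, a Dishevelled (8.46), at cfz-2, a Frizzled receptor (7.81), and at 1 further gene, and the 3 named had GAGAGA. The TGF-beta list had 2 (0.209%, against 0.193%), at the receptor daf-4 (9.28) and the ligand dbl-1 (8.37). The vulval EGF and Notch list had 6 peaks at 3 of 37 genes (0.626%, against 0.348%). These genes were fos-1, the Ras gene let-60 (8.48, replicates 2 and 4) and ark-1, a kinase that restrains EGF signalling (7.78, replicates 1 and 2). The gap between cpg-4 and fos-1 held 5 recurrent peaks in 4 regions, and the share without that gap was not computed. The list of 36 nuclear hormone receptor genes, a subset of that large family, had 4 peaks (0.417%, against 0.444%), at nhr-69 (11.2), nhr-46 (9.34) and nhr-105 (8.59). Receptor genes outside that subset also had recurrent peaks, and the highest, named after its value was seen, was at nhr-88 (17.2).

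Among genes of differentiated tissues, the neuronal list had 14 peaks (1.46%, against 1.97%), of which 3 were assigned to snt-1 in the gap upstream of egl-27. The others included unc-51, an autophagy kinase of axon growth (13.3, with 3.31, 6.29 and 2.71 in replicates 1, 2 and 4), and unc-116, the kinesin heavy chain (12.3, with 2.92, 5.80 and 5.01). The muscle list had 4 peaks (0.417%, against 0.348%), with lev-11 (tropomyosin, 7.44), act-3 (actin, 7.12) and ttn-1 (titin, 6.99) the highest. The cuticle collagen list had 4 peaks at 4 of 175 genes (0.417%, against 0.792%), with col-99 (7.99), dpy-5 (7.92) and col-38 (4.35) the highest, and the epidermis and molting list had 3 (0.313%, against 0.328%), at dpy-31, a procollagen protease (11.8), egl-18 and qua-1 (5.26). The germline list had 3 peaks (0.313%, against 0.251%), at cgh-1, an RNA helicase (11.1), fbf-2, a Pumilio protein (10.4), and car-1 (9.73). Ribosomal protein genes had 3 (0.313%, against 0.425%), at rps-28 (9.87), rpl-32 (8.83) and rpl-21 (7.54).

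The heterochronic list, whose genes time larval cell fates, had 0 recurrent peaks at the 20 protein-coding genes matched, while 17 other intergenic peaks lay nearest to 8 of them. Its microRNA genes cel-mir-48 and cel-mir-241 were not counted by the nearest protein-coding start, and their recurrent peaks are those described above. The histone list had 0 recurrent and 2 other peaks.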

How the data were processed

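The deposited peak lists of the authors were taken unchanged, on build ce11 (WBcel235): 1 list for each of the 3 libraries, a pooled list made from the 3 alignments and a control together, and a reproducible list that the irreproducible discovery rate (IDR) procedure selected from these, as the deposited README texts say. No source used here names the peak caller. As for units, the signal is the deposited value of each peak, with no stated scale. The q column of the deposited lists holds values below 0, was treated as a score and was not used. Pooled peaks were 430 bp, and the deposited summit of full-length peaks is their middle, so it is called the centre. Depth per sample is unknown.

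Overlaps of 1 bp or more, distances to starts in Ensembl release 115 (19985 protein-coding genes) and motif matches on both strands within 100 bp of the centre were computed with Python 3.11.15, numpy 2.4.6, pandas 2.3.3 and scipy 1.17.1, and the functions were tested on simulated data. Libraries were the replicates of the only test, an exact two-sided sign-flip permutation test. The members, gene lists and motifs were chosen with earlier results of these data known. Named genes are the nearest protein-coding starts of the 15 highest members, of every member in the reproducible list and of up to 3 members per gene list, and further names were chosen once values had been seen. Other settings tried were the overlap rule, signal, distances, windows, comparison peaks and each replicate left out.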

Additional observations from a re-analysis of the deposited data

How the results depend on the processing

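Of 142 alternative values over 11 results, 0 changed direction, 67 moved by less than the spread between libraries (for the number of peaks, by less than 1.5 times) and 75 moved by more, nearly all through stricter or looser definitions of a recurrent peak or window. No paired analysis was possible because there is only 1 group. With each replicate left out in turn, a peak had to be in both other libraries, and the number of peaks was 292 to 505, the share in the reproducible list 2.38 to 3.42%, the share with GAGAGA 25.9 to 32.5%, the GAGAGA difference 10.2 to 16.8 points, the GATA difference 0.0199 to 7.25 points, the difference in base composition (GC content) 1.83 to 3.91 points, the difference in the central part 6.96 to 11.4 points and the difference in the further library 8.42 to 9.87 points. With centres required to lie within 100 bp of each other, 358 peaks were left, with 4.19% in the reproducible list, 30.2% with GAGAGA, differences of 14.5 points for this word, 2.75 points for base composition and 6.81 points in the further library. With partners in all 3 libraries, 124 peaks were left, with 8.06% reproducible, 37.9% with GAGAGA and differences of 21.8 for the repeat word, 5.44 for base composition and 15.1 points for the central part. With partners among each library's 5000 highest signals, 410 peaks were left, with 3.90% reproducible, 35.1% with GAGAGA and differences of 19.9 for the repeat word, 5.95 for GATA sites and 4.11 points for base composition. The 479 peaks in the upper part by pooled signal had 3.34% reproducible, 31.9% with GAGAGA and differences of 17.2 for the repeat word, 8.16 for GATA sites and 3.27 points for base composition. Windows of 200 bp to each side gave 39.4% with GAGAGA and differences of 13.5 for the repeat word and 1.82 points for base composition, and windows of 50 bp gave 16.3%, 8.18 for the repeat word and 1.76 points for GATA sites. Settings added after seeing the data gave differences of 6.61 for the repeat word and 1.42 points for base composition within ranges of pooled signal and 27.7% with GAGAGA for 1 peak per merged region, while leaving out the gap upstream of egl-27 moved no value by more than the spread. The cause of these shifts was not tested beyond what each definition itself changes. With 3 libraries no test could go below p = 0.25 (exact permutation), read depth is unknown, and the list of other intergenic peaks holds background by design.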
